A study of Mus musculus with 6 samples.

Results

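The AP-1 transcription factors described here are 10 mouse genes, Fos, Fosb, Fosl1, Fosl2, Jun, Junb, Jund, Batf3, Maff and Mafk, out of 24391 genes counted by RNA sequencing in cultured melanoma cells. They were picked by gene name, with the KMT2D KO and KMT2D WT values of the series already known, so their levels in the 2 groups are given as a description, with no p-value. Whether a gene was called in the fit over all genes is stated only beside the share of all genes called, or where leaving out a library changed it. KMT2D KO stands for 3 libraries of tumour cells from iBIP;KMT2DL/L mice, whose Kmt2d alleles are floxed, and KMT2D WT for 3 libraries of tumour cells from iBIP;KMT2D+/+ mice. The KMT2D protein methylates histone H3, above all at enhancers. Both groups carry the iBIP alleles, namely floxed PTENL/L and INK/ARFL/L, the doxycycline-driven transgene TetO-BRAFV600E with its activator Rosa26-rtta, and Tyr-CreERT2, a tamoxifen-activated Cre under the tyrosinase promoter of melanocytes, on a mixed FVB and B6 background. Doxycycline was given and 4-OHT was put on the ears to start auricular tumours, and the labels state no age. Nothing in them tells separate tumours or cultures from repeat libraries of 1 culture. All p-values therefore rest on library-to-library spread alone, possibly technical, and genotype cannot be told apart from a difference between tumours. The extraction label speaks of cerebellar tissue, while the other labels speak of tumour cells.

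AP-1 is a family of dimers of basic leucine zipper proteins. JUN proteins pair with each other or with FOS proteins, and FOS proteins bind DNA only with a partner. Fos, Fosb, Jun and Junb are immediate-early genes, which are switched on within minutes of growth factor, ERK or stress signalling and whose RNAs are short-lived, while Jund is expressed in resting cells of many kinds. Fosl1 and Fosl2 encode FRA-1 and FRA-2, which lack the strong activation domain of FOS and FOSB, and FRA-1 is known to build up under lasting ERK signalling, such as that from mutant BRAF. Batf3 pairs with JUN proteins and, in mice, is needed for cross-presenting dendritic cells. Maff and Mafk are small MAF proteins, which have no activation domain and act through NFE2-related or BACH partners.

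Total counts ranged from 55594979 to 79718782 per library in KMT2D KO and from 43168605 to 59360068 in KMT2D WT. The targeted gene Kmt2d (mm9 chromosome 15, 98662100 to 98701636) had 73.0, 69.3 and 79.8 CPM in KMT2D KO libraries, against 79.7, 87.6 and 101 CPM in KMT2D WT libraries, where CPM are counts scaled by the TMM-adjusted library size. It was called lower, with a log2 fold change of -0.27 (edgeR adjusted p = 0.0075), although the libraries overlapped and the call was lost without KMT2D KO replicate 2 (-0.21, edgeR adjusted p = 0.058; 0.00057 to 0.058 over all alternatives). A count over the whole gene cannot tell if floxed exons are missing. Of 10 melanocyte markers, 6 were under 1 CPM in both groups, including Tyr, Tyrp1, Dct, Mlana and Sox10, whereas Mitf averaged 53.2 CPM in KMT2D KO and 15.4 CPM in KMT2D WT, and S100b 0.181 CPM in KMT2D KO and 4.47 CPM in KMT2D WT. Of the 6 melanocyte markers tested, 3 rose, 1 fell (S100b) and 2 were not called, where 71.0% of all tested genes were called. All 10 summed to between 659 and 692 CPM in KMT2D KO libraries and between 401 and 497 CPM in KMT2D WT libraries. Most of that sum came from Gpnmb, so it does not describe the list as a whole. The 8 fibroblast markers, which include collagen genes that other cells also express, summed to between 21240 and 22240 CPM in KMT2D KO libraries and between 5530 and 5730 CPM in KMT2D WT libraries. Of these 8, 6 were called higher and 2 lower, against 35.4% and 35.5% of all tested genes. Their log2 fold changes were uneven, with Col3a1 at 3.20 and Dcn at 0.22, and the 2 that fell were Dpt (-5.69) and Lum (-1.29). The 8 immune markers summed to between 4.47 and 5.45 CPM in KMT2D KO libraries and between 12.0 and 20.7 CPM in KMT2D WT libraries, with Ptprc, Adgre1, Cd3e and Itgam among those under 1 CPM in both. The 4 endothelial markers were each under 1 CPM in both groups, as were 6 of 7 cerebellum markers. The 6 keratinocyte markers summed to at most 17.6 CPM in any library. The 5 Schwann cell markers summed to between 54.3 and 58.5 CPM in KMT2D KO libraries and between 11.1 and 12.9 CPM in KMT2D WT libraries, and they include Egr2, itself an immediate-early gene, with means of 53.0 CPM in KMT2D KO and 8.25 CPM in KMT2D WT. The part of other cell types in the AP-1 values was not tested, and fewer cells of a type cannot be told apart from less RNA per cell.

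The 4 genes that stood furthest above KMT2D WT at high abundance were Fosb, Fos, Junb and Jun. Their promoters are shown because these genes were high together in the same libraries. RefSeq promoter windows on the build GRCm38.p6 were matched by symbol for 9 of the 10 genes (Fosl1 was not among them), and the 250 bases before the annotated start are printed here 5′ to 3′ on the gene's strand. Capitals mark the half-site TGACG of the cAMP response element, the TGACATCA element that ATF and JUN dimers are known to bind, and the TATA box TATAAA. The Fos window is chr12:85473640-85473889 on the plus strand, the Fosb window chr7:19310046-19310295 on the minus strand, the Jun window chr4:95052223-95052472 on the minus strand and the Junb window chr8:84978749-84978998 on the minus strand.
Fos promoter: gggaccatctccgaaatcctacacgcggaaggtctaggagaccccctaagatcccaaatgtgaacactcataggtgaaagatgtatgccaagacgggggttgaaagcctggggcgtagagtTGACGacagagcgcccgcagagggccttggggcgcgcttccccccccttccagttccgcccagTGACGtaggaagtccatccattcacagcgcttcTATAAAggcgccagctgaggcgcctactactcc
Fosb promoter: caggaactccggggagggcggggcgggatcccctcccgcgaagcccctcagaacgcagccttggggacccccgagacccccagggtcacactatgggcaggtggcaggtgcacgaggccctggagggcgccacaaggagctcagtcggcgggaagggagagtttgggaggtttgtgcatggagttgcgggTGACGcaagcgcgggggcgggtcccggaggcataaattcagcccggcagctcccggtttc
Jun promoter: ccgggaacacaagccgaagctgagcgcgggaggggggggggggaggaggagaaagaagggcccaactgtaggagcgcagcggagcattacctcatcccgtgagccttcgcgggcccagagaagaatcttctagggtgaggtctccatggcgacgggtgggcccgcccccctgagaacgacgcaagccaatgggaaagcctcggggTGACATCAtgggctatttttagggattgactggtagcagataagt
Junb promoter: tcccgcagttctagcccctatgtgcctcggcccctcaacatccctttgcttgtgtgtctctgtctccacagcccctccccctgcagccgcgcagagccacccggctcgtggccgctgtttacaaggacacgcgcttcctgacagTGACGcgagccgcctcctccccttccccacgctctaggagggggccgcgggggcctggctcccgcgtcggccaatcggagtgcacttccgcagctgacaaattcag

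Both strands were searched, except for TATAAA, which was sought on the gene's strand alone. GGGCGG and CCAAT, which are not marked in capitals, were searched too. GGGCGG was found in windows of Fos, Fosb and Jun, and also of Fosl2, Batf3, Maff and Mafk (35.7% of all windows). CCAAT was found in those of Jun and Junb (37.4% of all windows). TGACG began 129 and 66 bases before the Fos start, 60 bases before the Fosb start and 106 bases before the Junb start. It also began 41 bases before the start of Mafk, whose groups overlapped, and it was found in 2 of the 3 Maff windows and in 20.8% of all 32851 promoter windows. TGACATCA began 45 bases before the Jun start, against a share of 3.62% over all windows. TATAAA began 33 bases before the Fos start and at the first base of the Junb transcript as annotated, against 8.32% of all windows. Of the genes at other levels, Maff had TGACGTCA, a full cAMP response element that contains TGACG on each strand, 29 bases before 1 of its 3 annotated starts, against 1.79% of all windows. TGACATCA began 45 bases before another Maff start. The TGACG search was added after the sequences were seen. The AP-1 site TGACTCA (5.2% of all windows) and the CArG box of serum response factor (1.63%) were not found in the 11 windows of the 9 genes. The known serum response element of Fos lies upstream of its window.

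Fos RNA was far more abundant in KMT2D KO cells than in KMT2D WT cells. The gene (mm9 chromosome 12, 86814851 to 86818219, plus strand, 2093 exonic bases) had 1283, 1293 and 1269.7 CPM in KMT2D KO libraries, against 40.7, 36.3 and 32.6 CPM in KMT2D WT libraries. All 3 KMT2D KO libraries were above all 3 KMT2D WT libraries, and the fitted log2 fold change, KMT2D KO minus KMT2D WT, was 5.13 (SE 0.08), or 35.1-fold. Per kilobase of exon the mean was 612 ± 5.68 RPKM in KMT2D KO and 17.4 ± 1.93 RPKM in KMT2D WT (SD, n = 3 each), which placed Fos 81st and 3894th in level among the 24391 genes.

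Fosb, the FOS gene that in mice also encodes the truncated deltaFOSB, differed by the widest margin of the 10 genes. It had 908, 913 and 926 CPM in KMT2D KO libraries, against 15.03, 14.6 and 13.4 CPM in KMT2D WT libraries. The groups lay far apart, with a log2 fold change of 5.99 (SE 0.07, 63.7-fold), and 89 of the 14579 tested genes had a higher one. Fosb lies on chromosome 7 (19888045 to 19895394, minus strand).

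The FRA genes differed less between the groups. Fosl2 (chromosome 5, 32438845 to 32460212) had 653, 654 and 711 CPM in KMT2D KO libraries, against 458, 463 and 473 CPM in KMT2D WT libraries. The groups did not overlap, and the log2 fold change was 0.53 (SE 0.05), or 1.45-fold. Fosl1 (chromosome 19, 5447698 to 5455938) had 43.2, 43.8 and 44.7 CPM in KMT2D KO libraries, against 41.7, 53.9 and 52.8 CPM in KMT2D WT libraries. The KMT2D KO libraries lay within the range of the KMT2D WT libraries, the log2 fold change was -0.17 (SE 0.09), and it was -0.28, and called, without KMT2D WT replicate 1. Exons of Fosl1 overlap those of Ccdc85b in the annotation of the files, so its counts are uncertain.

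The JUN genes were all higher in KMT2D KO libraries, by unequal amounts. Junb (chromosome 8, 87500808 to 87502647, minus strand) had 1109, 1141 and 1130 CPM in KMT2D KO libraries, against 144, 168 and 144 CPM in KMT2D WT libraries, a log2 fold change of 2.89 (SE 0.07, 7.41-fold). Jun (chromosome 4, 94715727 to 94718913, minus strand) had 944, 914 and 927 CPM in KMT2D KO libraries, against 156, 155 and 170 CPM in KMT2D WT libraries, a log2 fold change of 2.54 (SE 0.05, 5.80-fold). For neither gene did the groups overlap. Jund (chromosome 8, 73221638 to 73224515, plus strand) had 137, 144 and 136 CPM in KMT2D KO libraries, against 62.5, 70.7 and 73.1 CPM in KMT2D WT libraries, a log2 fold change of 1.02 (SE 0.06, 2.02-fold). Its groups did not overlap either, but the difference was the smallest of the 3 JUN genes.

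Batf3 was rare in both groups. The gene (chromosome 1, 192922293 to 192932822) had 121, 106 and 72 counts in KMT2D KO libraries, against 5, 0 and 3 counts in KMT2D WT libraries. That is 1.58, 1.73 and 1.35 CPM in KMT2D KO libraries, against 0.0855, 0 and 0.0671 CPM in KMT2D WT libraries. The groups did not overlap, but the log2 fold change of 4.93 (SE 0.58) rested on 8 KMT2D WT counts and lay between 4.30 (without KMT2D WT replicate 2) and 5.67 (without KMT2D WT replicate 1) when single libraries were left out. The immune cell marker Ptprc averaged 0.107 CPM in KMT2D KO and 0.517 CPM in KMT2D WT.

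The small MAF genes behaved differently from each other. Maff (chromosome 15, 79177051 to 79189506, plus strand) had 20.5, 22.5 and 19.3 CPM in KMT2D KO libraries, against 110.2, 105 and 110.5 CPM in KMT2D WT libraries. Every KMT2D KO library was below every KMT2D WT library, with a log2 fold change of -2.38 (SE 0.07), 5.22-fold lower in KMT2D KO. Mafk (chromosome 5, 140267490 to 140278606) had 53.1, 55.8 and 59.5 CPM in KMT2D KO libraries, against 55.2, 48.2 and 50.8 CPM in KMT2D WT libraries. Its groups overlapped, with a log2 fold change of 0.13 (SE 0.07), and it was 0.18, and called, without KMT2D WT replicate 1.

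**Figure D1:**
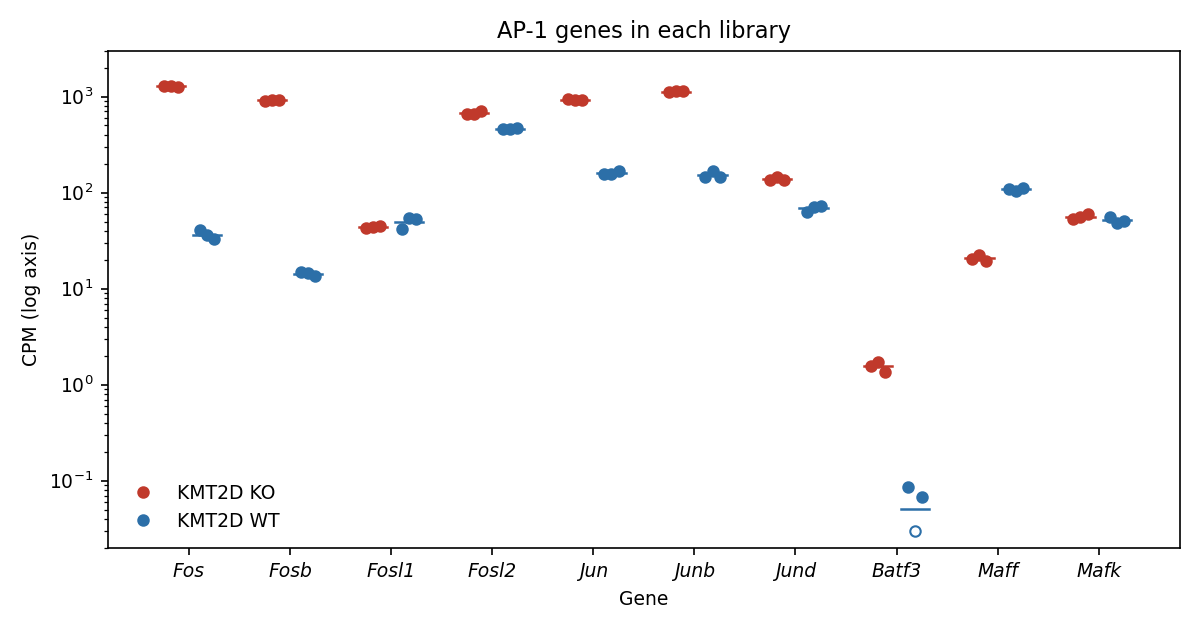
CPM of the 10 AP-1 genes on a log axis, with 1 point for each KMT2D KO library (red, left) and KMT2D WT library (blue, right) and a line at the mean of 3 libraries; the open circle stands for the KMT2D WT library with 0 Batf3 counts. Points of the groups are apart in 8 genes and overlap in Fosl1 and Mafk.

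Of the 10 genes, 7 were called higher and 1 lower in KMT2D KO, at an adjusted p under 0.05 in edgeR's quasi-likelihood test over all genes, and 2 were not called. Across all 14579 tested genes 71.0% were called, 35.4% higher and 35.5% lower, with a median log2 fold change of 0.00. KMT2D KO and KMT2D WT libraries were apart in 8 of the 10 genes and in 74.3% of all tested genes. With a log2 fold change above 1, 6 of the 10 were called higher, and 13.9% of all tested genes; below -1, 1 was called lower, and 12.9% of all tested genes. Since the genes were chosen with this comparison in view, nothing is read from these counts.

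**Figure D2:**
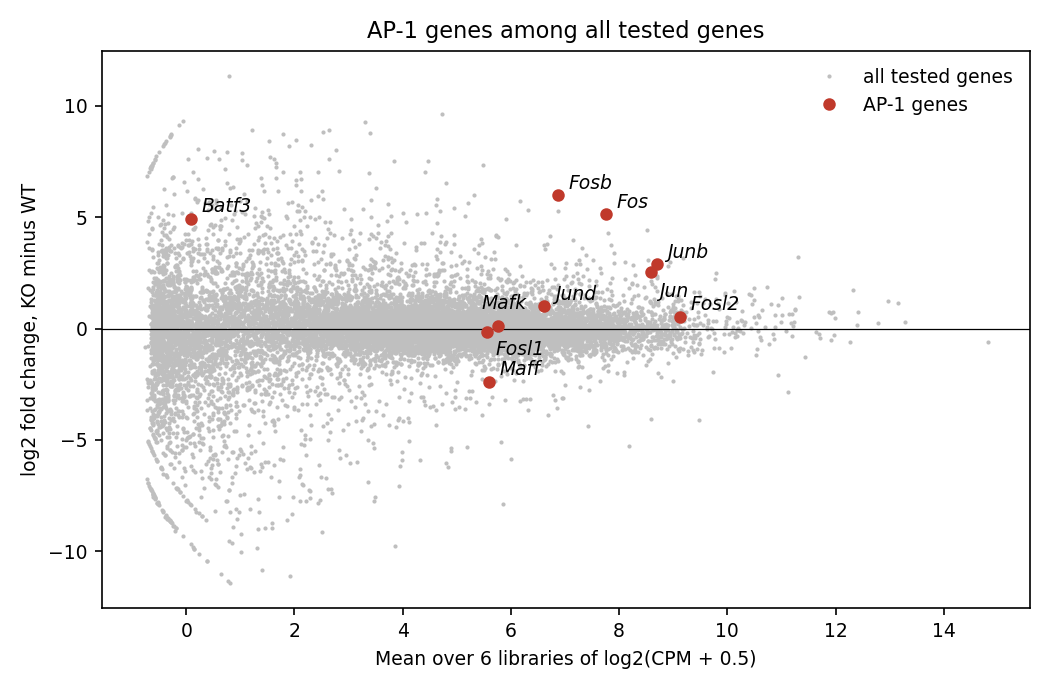
Log2 fold change, KMT2D KO minus KMT2D WT, of the 14579 tested genes (grey) and the 10 AP-1 genes (red) against the mean of log2(CPM + 0.5) over 6 libraries. Fos and Fosb lie at 5.13 and 5.99 at high abundance, and Batf3 lies at 4.93 at low abundance.

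Libraries within a group gave close values for most of these genes. In KMT2D KO, the coefficient of variation between libraries was 0.927% for Fos, 1.06% for Fosb, 1.43% for Junb and 1.59% for Jun, where the median over all tested genes was 5.51%. In KMT2D WT it was 11.1% for Fos, 5.93% for Fosb, 9.32% for Junb and 5.19% for Jun, with a median of 9.04%. The differences described for these 4 genes were therefore many times the spread between libraries of a group. The highest library varied from gene to gene. Among the 3 KMT2D KO libraries, replicate 1 was highest in 1 of the 10 genes, replicate 2 in 5 and replicate 3 in 4, and among the KMT2D WT libraries replicates 1, 2 and 3 were highest in 4, 2 and 4.

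Neighbouring genes on the chromosome were compared as a measure of the surroundings of each AP-1 gene. The 20 tested genes flanking each AP-1 gene had median log2 fold changes between -0.61 (around Mafk) and 0.49 (around Jund). Around Fos the median was -0.10, around Fosb 0.40, around Jun 0.18, around Junb 0.29 and around Maff 0.02. Jund, at 1.02, was nearest to its neighbours among the genes called higher.

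The order of the genes by level changed between the groups. In KMT2D KO the order by mean RPKM was Fos (612), Junb (612), Jun (291), Fosb (242), Fosl2 (115), Jund (48.3), Fosl1 (25.8), Mafk (19.9), Maff (7.996) and Batf3 (2.18). Fos and Junb overlapped between libraries, and no other neighbours in that order did. In KMT2D WT the order was Junb (82.6), Fosl2 (79.2), Jun (50.2), Maff (41.8), Fosl1 (29.0), Jund (23.9), Mafk (18.2), Fos (17.4), Fosb (3.80) and Batf3 (0.0714). There Junb and Fosl2, Fosl1 and Jund, and Mafk and Fos overlapped between libraries. Maff thus stood at rank 9 of the 10 in KMT2D KO cells and at rank 4 in KMT2D WT cells.

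Summed per length, FOS genes reached 995 ± 5.04 RPKM in KMT2D KO and 129.5 ± 3.06 RPKM in KMT2D WT (SD, n = 3 each), a ratio of 7.69. JUN genes reached 952 ± 5.34 RPKM in KMT2D KO and 157 ± 7.81 RPKM in KMT2D WT, a ratio of 6.07. The RNA of FOS genes relative to that of JUN genes was 1.05 ± 0.00394 in KMT2D KO and 0.827 ± 0.0236 in KMT2D WT. By CPM, without correction for length, this ratio was lower in KMT2D KO than in KMT2D WT. The rise of the FOS sum was then also smaller than that of the JUN sum. Neither direction therefore holds without the length correction. The sum of the small MAF genes Maff and Mafk was 27.9 ± 1.03 RPKM in KMT2D KO and 60.0 ± 2.29 RPKM in KMT2D WT.

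Different genes made up most of the FOS RNA in the 2 groups. Fos made up 61.5% ± 0.727 of the summed FOS RPKM in KMT2D KO and 13.5% ± 1.78 in KMT2D WT (SD, n = 3 each). Fosl2 made up 11.5% ± 0.532 in KMT2D KO and 61.2% ± 1.14 in KMT2D WT. Fosb held 24.4% ± 0.162 in KMT2D KO and 2.94% ± 0.224 in KMT2D WT, and Fosl1 2.59% ± 0.0347 in KMT2D KO and 22.4% ± 2.57 in KMT2D WT. Fos and Fosb therefore led in KMT2D KO and the 2 FRA genes in KMT2D WT, although the level of Fosl2 itself was higher in KMT2D KO. Counts per gene do not tell Fosb RNA for the full protein from that for deltaFOSB. The Fosl1 share is uncertain because its exons overlap those of Ccdc85b. Without correction for length, the Fos share was 44.0% in KMT2D KO and 6.47% in KMT2D WT, and the Fosl2 share 23.1% in KMT2D KO and 82.2% in KMT2D WT. The Fosl1 share was then 1.51% in KMT2D KO and 8.75% in KMT2D WT.

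The JUN shares lay closer together. Junb held 64.3% ± 0.565 of the JUN sum in KMT2D KO and 52.7% ± 2.89 in KMT2D WT. Jun held 30.6% ± 0.659 in KMT2D KO and 32.1% ± 2.35 in KMT2D WT, a difference within the spread of the KMT2D WT libraries. Jund held 5.07% ± 0.153 in KMT2D KO and 15.2% ± 0.856 in KMT2D WT. Without correction for length, Junb led Jun in KMT2D KO (51.3% and 42.3%) but not in KMT2D WT (39.9% and 42.1%).

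**Figure D3:**
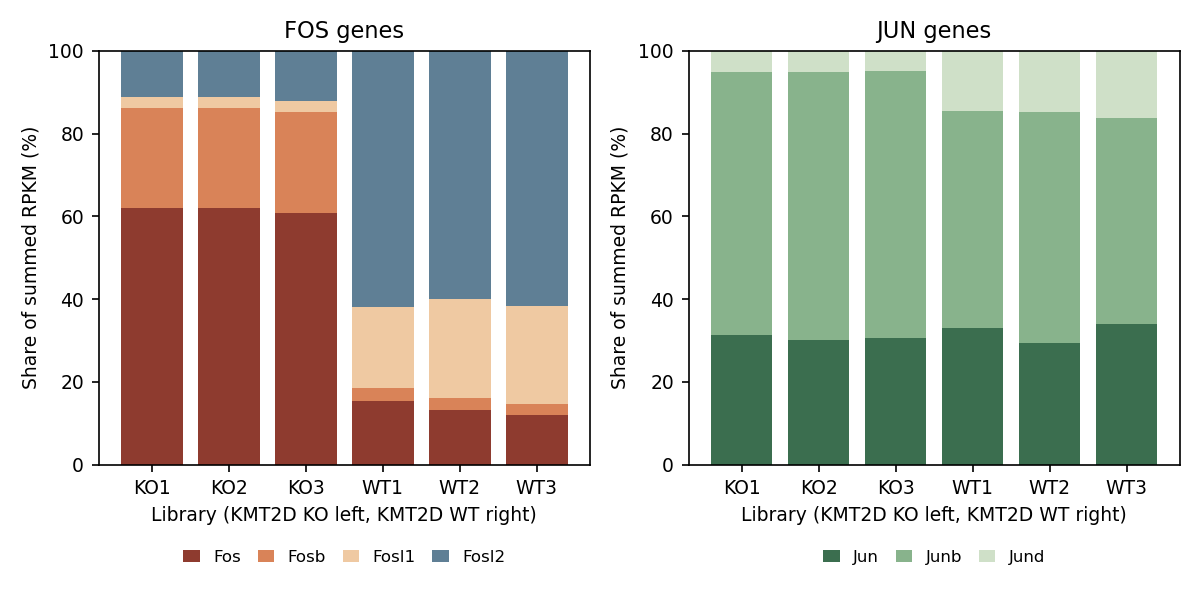
Share of each gene in the summed RPKM of the FOS genes (left) and of the JUN genes (right), with 1 stacked bar for each library, KMT2D KO to the left of KMT2D WT. Fos and Fosb fill most of the FOS bar in the 3 KMT2D KO libraries, and Fosl2 and Fosl1 in the 3 KMT2D WT libraries.

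Other immediate-early genes mostly rose together with Fos and Jun. Of 20 such genes outside AP-1, 16 rose, 2 fell and 2 were not called in KMT2D KO, with a median log2 fold change of 1.10. Across all tested genes 35.4% were called higher and 35.5% lower, and the list was written with earlier results of these data known. Egr2, a zinc finger factor of the early growth response family, rose to 53.0 ± 2.34 CPM in KMT2D KO, against 8.25 ± 0.469 CPM in KMT2D WT (SD, n = 3 each; log2 fold change 2.68, edgeR adjusted p = 2.9e-13). Its relative Egr1 averaged 784 ± 23.2 CPM in KMT2D KO and 197 ± 35.2 CPM in KMT2D WT (1.99, edgeR adjusted p = 9.9e-11), and Ier2 averaged 214 CPM in KMT2D KO and 47.2 CPM in KMT2D WT (2.18). The nuclear receptor gene Nr4a2 fell to 29.9 ± 2.32 CPM in KMT2D KO, against 122 ± 14.3 CPM in KMT2D WT (-2.03, edgeR adjusted p = 1.7e-11), and Ier3 fell by 0.56 on the log2 scale. Ctgf and Myc were not called, with log2 fold changes of 0.03 and 0.07 (chosen after their values were seen). The labels give no time since feeding or harvest, and the part of cell handling was not tested.

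Output genes of ERK signalling, which include brakes on the pathway, were called in both directions. Of 12, 3 rose and 7 fell (35.4% and 35.5% over all tested genes), while 2 had no call. Their median log2 fold change was -0.20. Spry1 rose to 16.4 ± 0.802 CPM in KMT2D KO, against 2.23 ± 0.404 CPM in KMT2D WT (2.86), the ERK phosphatase gene Dusp6 rose by 0.98 and Phlda1 by 0.45. Spry4 fell to 10.4 ± 0.0767 CPM in KMT2D KO, against 61.5 ± 5.89 CPM in KMT2D WT (-2.56), the phosphatase gene Dusp4 fell by 1.75 and the ETS factor gene Etv1 by 1.24 on the log2 scale. For these 6, the highest adjusted p in edgeR was 0.0021.

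Among the basic leucine zipper relatives, 4 of 11 tested genes rose and 4 fell (35.4% and 35.5% over all tested genes). The other 3 had no call, and the median log2 fold change of the 11 was -0.09. Maf, a large MAF factor with an activation domain, rose to 119.7 ± 3.72 CPM in KMT2D KO, against 24.7 ± 5.61 CPM in KMT2D WT (2.29, edgeR adjusted p = 1.1e-10). Batf2 averaged 5.89 CPM in KMT2D KO and 1.49 CPM in KMT2D WT (2.00), and the stress factor gene Atf3 averaged 11.7 CPM in KMT2D KO and 8.03 CPM in KMT2D WT (0.54). Batf, a close relative of Batf3, fell to 0.422 CPM in KMT2D KO, against 3.24 CPM in KMT2D WT (-2.90, edgeR adjusted p = 1.1e-06), and the large MAF gene Mafa (-2.67) fell as well, with 0.164 CPM in KMT2D KO and 1.07 CPM in KMT2D WT. The third small MAF gene, Mafg, averaged 54.1 CPM in KMT2D KO and 57.2 CPM in KMT2D WT and was not called. It was chosen after its values were seen, as were Nfe2 and Nfe2l2.

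Among 7 tested partners of MAF and BATF proteins there were 2 rises, 2 falls and 3 genes without a call. Rises made up 35.4% and falls 35.5% of all tested genes, and the median log2 fold change of the 7 was 0.02. Bach2, a repressor that pairs with small MAF proteins, averaged 2.13 CPM in KMT2D KO and 0.142 CPM in KMT2D WT (3.78, edgeR adjusted p = 1.5e-05), but it overlaps Bach2os, so its counts are uncertain. It had 8, 18 and 0 counts in KMT2D WT libraries, and its log2 fold change was 4.77 without KMT2D WT replicate 2. Bach1 averaged 89.1 ± 2.80 CPM in KMT2D KO and 79.1 ± 7.31 CPM in KMT2D WT (0.17, edgeR adjusted p = 0.031), and the libraries overlapped. The call was lost under 6 alternatives: library size alone, the filter at 1 CPM, and leaving out KMT2D KO replicate 1 or 3 or KMT2D WT replicate 1 or 2 (edgeR adjusted p = 0.052 to 0.41). Over all alternatives its adjusted p lay between 0.0004 and 0.41. Nfe2l1 fell to 561 CPM in KMT2D KO, against 908 CPM in KMT2D WT (-0.69, edgeR adjusted p = 4.3e-09). The other gene that fell was Nfe2, at 0.0980 CPM in KMT2D KO and 0.323 CPM in KMT2D WT (-1.68, edgeR adjusted p = 0.024). Nfe2l2, the antioxidant factor NRF2, averaged 457 CPM in KMT2D KO and 450 CPM in KMT2D WT and was not called.

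Kinases upstream of AP-1 were called in both directions. Of 21, 6 rose and 11 fell (35.4% and 35.5% over all tested genes), while 4 had no call. Their median log2 fold change was -0.22. Rps6ka1, which encodes an RSK kinase activated by ERK, rose (18.5 CPM in KMT2D KO and 5.13 CPM in KMT2D WT, 1.85), as did Map3k1, at the head of a JNK cascade (46.1 CPM in KMT2D KO and 16.4 CPM in KMT2D WT, 1.49), and the p38 activator gene Map2k6 (9.10 CPM in KMT2D KO and 3.97 CPM in KMT2D WT). The p38 gene Mapk13 fell to 6.49 ± 0.624 CPM in KMT2D KO, against 74.2 ± 8.67 CPM in KMT2D WT (-3.52, edgeR adjusted p = 2.0e-13). Rps6ka2 and the JNK activator gene Map2k7 fell to 16.7 and 49.5 CPM in KMT2D KO, against 38.3 and 109 CPM in KMT2D WT. The ERK gene Mapk3 (-0.61) and the JNK gene Mapk8 (-0.31) were called lower as well, and they were chosen after their values were seen.

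Factors known to act at FOS and JUN promoters rose in 7 of 13 cases, fell in 4 and were not called in 2. Shares over all tested genes were 35.4% higher and 35.5% lower, and the median log2 fold change of the 13 was 0.24. Mef2c, a MADS box factor, averaged 71.3 ± 3.10 CPM in KMT2D KO and 9.37 ± 0.777 CPM in KMT2D WT (2.93, edgeR adjusted p = 9.8e-14). Stat3, the signal transducer of IL-6 family cytokines, averaged 358 CPM in KMT2D KO and 173 CPM in KMT2D WT (1.05), and the ternary complex factor gene Elk1 36.1 CPM in KMT2D KO and 25.0 CPM in KMT2D WT (0.53). The cAMP-responsive factor gene Crem fell to 6.71 CPM in KMT2D KO, against 20.8 CPM in KMT2D WT (-1.64), and Elk3 (-0.75) and Mkl2 (-0.63) fell too. All 6 had an edgeR adjusted p of 8e-05 or lower.

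Regulators of FOS and JUN turnover were called in both directions. Of 13, 4 rose and 4 fell (35.4% and 35.5% over all tested genes), while 5 had no call. Their median log2 fold change was 0.00. The largest rise was that of Zfp36, which encodes tristetraprolin, a protein that speeds the decay of short-lived RNAs such as Fos, with 533 ± 15.4 CPM in KMT2D KO and 63.0 ± 4.61 CPM in KMT2D WT (3.08, edgeR adjusted p = 4.8e-15). Its relatives Zfp36l1 (1.91) and Zfp36l2 (0.71) rose as well. The kinase gene Gsk3b (-0.56) and Fbxw7 (-0.31), which encodes the substrate receptor of a ubiquitin ligase for JUN, fell, with edgeR adjusted p of at most 0.0019. Gsk3b and Fbxw7 overlap another gene in the annotation of the files, so their counts are uncertain.

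Genes known as AP-1 targets did not move one way. Of 27, 11 rose and 12 fell (35.4% and 35.5% over all tested genes), while 4 had no call. Their median log2 fold change was -0.12. The collagenase gene Mmp13, a classical target of FOS and JUN, rose to 438 ± 10.2 CPM in KMT2D KO, against 24.8 ± 2.31 CPM in KMT2D WT (4.15, edgeR adjusted p = 9.1e-16). The metallothionein genes Mt2 (446 CPM in KMT2D KO and 52.8 CPM in KMT2D WT, 3.08) and Mt1 (1056 CPM in KMT2D KO and 160.5 CPM in KMT2D WT, 2.72) rose too. The EGF receptor ligand gene Areg fell to 1.58 ± 0.520 CPM in KMT2D KO, against 52.2 ± 5.16 CPM in KMT2D WT (-5.02, edgeR adjusted p = 6.6e-13), the cytokine gene Il11 to 2.24 CPM in KMT2D KO, against 44.1 CPM in KMT2D WT (-4.28), and the chromatin protein gene Hmga2 to 71.6 CPM in KMT2D KO, against 184 CPM in KMT2D WT (-1.36). Each list is read beside the 71.0% of all tested genes that were called, and the share called was 57.1% for the MAF and BATF partners, 61.5% for the turnover genes, 72.7% for the relatives, 81.0% for the kinases, 83.3% for the ERK output genes, 84.6% for the promoter factors, 85.2% for the targets and 90.0% for the immediate-early genes.

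**Figure D4:**
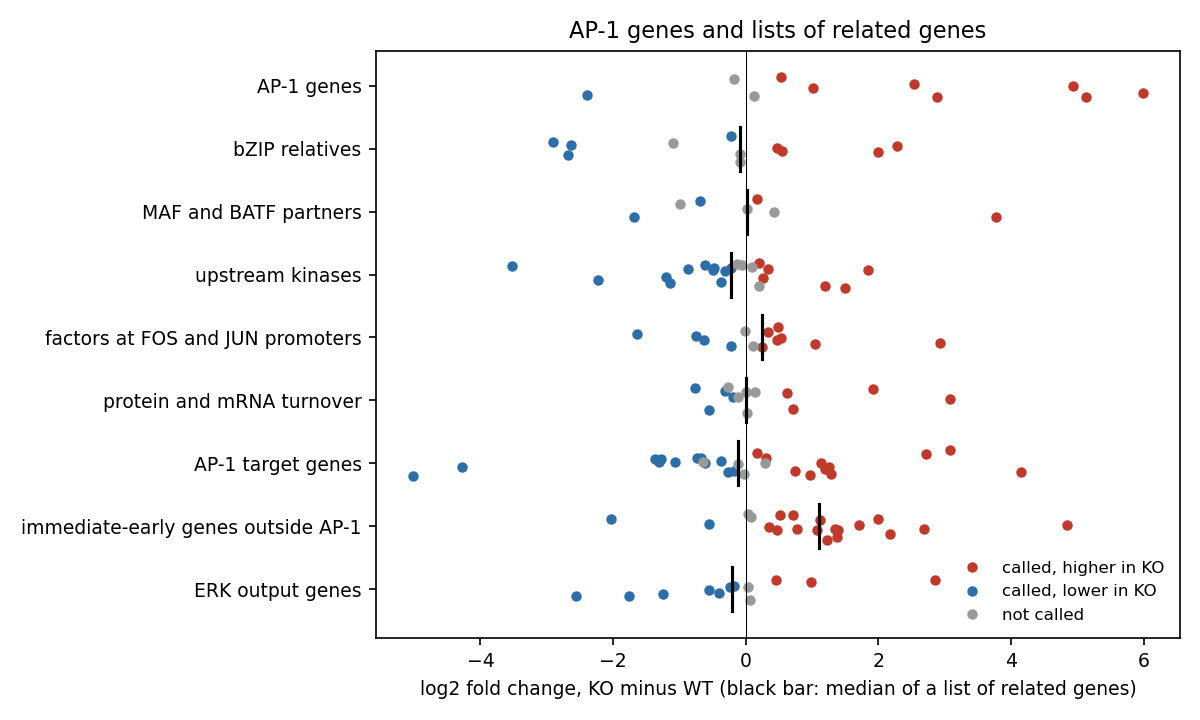
Log2 fold change, KMT2D KO minus KMT2D WT, of each tested gene (points) in the AP-1 family and in 8 lists of related genes, with called genes in red (higher) or blue (lower), genes not called in grey and a black bar at the median of each list of related genes. The immediate-early genes outside AP-1 have a median of 1.10, and the medians of the other lists lie between -0.22 and 0.24.

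The genes whose pattern over the 6 libraries was most like that of Fos, the leading FOS gene, were Col11a1, Tfap2b and Bmp4. They were sought among 8838 other tested genes that averaged 10 CPM or more, with clone and predicted-model names left out. Likeness was the root mean square difference of log2(CPM + 0.5) after centring each gene, and it was 0.10, 0.10 and 0.11. Col11a1 averaged 197 CPM in KMT2D KO and 5.95 CPM in KMT2D WT, and Bmp4, which overlaps another gene, averaged 87.6 CPM in KMT2D KO and 2.42 CPM in KMT2D WT. For Junb, the leading JUN gene, they were Ror1 (0.04), Cdon (0.07) and Gpr176 (0.07). With 2 groups of 3 libraries this measure reflects mainly the size of the difference between groups.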

How the data were processed

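RNA of 6 libraries was measured by RNA sequencing. Each deposited file holds counts of read pairs per gene, which featureCounts 1.5.2 summed over the exons of an mm9 annotation, per the file headers. The gene lengths used were those of the same deposited files. The submitters' processing notes also list STAR, HTSeq and mm9, giving no role. No strand, multi-mapping or overlap option was set, per the file headers, so both strands were counted and, by the default of featureCounts, fragments of several places or genes were left out.

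The main test was edgeR's quasi-likelihood test (version 4.0.16, under R 4.3.3). It used TMM factors, filterByExpr (14579 of 24391 genes kept), a model with the group alone and Benjamini-Hochberg adjustment over all tested genes. Genes were called at an adjusted p under 0.05. The SE is the log2 fold change divided by the square root of F. CPM and RPKM were computed from the deposited counts on TMM-scaled library sizes. The AP-1 genes and the lists were chosen with earlier results of these data known. From each list, up to 3 called rises and 3 called falls with the largest log2 fold change and at least 1 CPM in the higher group were named, and genes outside this rule are marked. Some genes of the lists are counted but not reported here by name. The scripts were tested on simulated counts. Alternatives were RLE factors, library size alone, DESeq2 1.42.0, other low-count filters, the replicate number as a block and leaving out each library.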

Additional observations from a re-analysis of the deposited data

How the results depend on the processing

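Log2 fold changes of the AP-1 genes, Kmt2d and the genes named by rule kept their sign under RLE factors, library size alone and DESeq2. They kept it when testing every gene with a count, requiring an average of 1 CPM, with the replicate block or leaving out each library. Genes named outside that rule, marker lists and medians were not followed. Scaling by library size alone shifted all genes, by a median of -0.11 in log2 fold change. Some values that were not followed lie nearer to 0 than this shift. The number of AP-1 genes called higher, 7, was 6 when an average of 1 CPM was required, which leaves Batf3 untested, and 8 without KMT2D WT replicate 1, when Mafk was called. Scaling by library size made Fosl1 the second AP-1 gene called lower (2 genes in place of 1), and the number lower lay between 1 and 2 when single libraries were left out. Among MAF and BATF partners, the number higher was 1 by library size alone and with the 1 CPM filter, the number lower was 1 without a filter, with the 1 CPM filter and with the replicate block, and both lay between 1 and 2 when libraries were left out. Bach2 and Nfe2l1 were called throughout, so the genes that dropped out were Bach1 among the higher and Nfe2 among the lower. At the 1 CPM filter Nfe2 was not tested. Shares by CPM, without length, were 44.0% in KMT2D KO and 6.47% in KMT2D WT for Fos, and 51.3% in KMT2D KO and 39.9% in KMT2D WT for Junb, since length correction scales each gene. The Batf3 log2 fold change is limited by depth.

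Libraries with the same replicate number did not vary together (correlations of 0.0064, 0.067 and 0.047 between deviations from the group means), and KMT2D KO replicate 1 did not correlate best with its own number. With the replicate block 5225 genes were called higher and 5143 lower, against 5164 and 5181 without it. Among alternative values of Kmt2d and the rule-named genes outside AP-1, 532 kept their side of the threshold and 7 lost the call. Those 7 were 6 of Bach1, and Kmt2d without KMT2D KO replicate 2 (-0.21, edgeR adjusted p = 0.058, where all alternatives gave 0.00057 to 0.058). Nfe2 and other genes named outside the rule were not counted here, though Nfe2 lost its call as given above.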
